A study of Homo sapiens and Mus musculus with 13 samples.

Results

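The histone lysine demethylase family was followed in both expression tables of the study. Its members were taken by name alone, as each symbol that starts with KDM (human) or Kdm (mouse) followed by a digit, leaving out the Y-linked KDM5D and Kdm5d. This gave 19 of 24523 human symbols and 19 of 55228 mouse symbols. A mean FPKM of 0.5, the minimum for testing, was reached by 18 human and 17 mouse members. FPKM is the number of fragments per kilobase of transcript, scaled to the mapped total, so levels of different genes are compared here per length. One human member, KDM4A-AS1, is a long non-coding RNA, and in mouse Kdm6bos is a non-coding antisense transcript and Kdm4dl a pseudogene. The libraries did not mark strand, so reads of KDM4A and KDM4A-AS1, and of Kdm6b and Kdm6bos, cannot be told apart where the genes overlap.

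Poly(A) RNA was sequenced from 2 systems. MDA-MB-231 cells, from human breast cancer and without hormone receptors, gave 7 lines: 1 Control carrying a GFP guide RNA, 2 TRIM11-KD, 2 KDM5C-KD and 2 with both genes targeted (DKD, double knockdown). TRIM11-KD1 and TRIM11-KD2 carried TRIM11 guides 1 and 2, KDM5C-KD1 and KDM5C-KD2 carried KDM5C guides 1 and 2, and DKD1 and DKD2 joined TRIM11 guide 1 or 2 with KDM5C guide 2. All were made with lentiviral Cas9 and puromycin selection, so each line is 1 selected population. The mouse system was mammary tumors of MMTV-PyVT mice, in which the MMTV promoter drives the polyoma middle T oncogene in the mammary gland. Tumors came from 3 Trim11+/+ and 3 Trim11+/- animals at 3 months of age, female by the methods. The Trim11+/+ controls carried the transgene too. Their background was a hybrid of FVB/N-Tg (MMTV-PyVT) 634Mul/J with C57BL/6N by the methods, mated following 3 or more generations of backcrossing. In the labels the number before Mul/J runs from 634 to 639 over the 6 tumors. The strain label also reads Trim11+/- for all 6, so the genotypes used here are those of the genotype label. The Trim11 allele lacks a block of exons removed with CRISPR/Cas9 in the whole animal, not in the mammary gland alone.

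Histone lysine demethylases remove methyl groups from lysines of histone tails. KDM1A (LSD1) and KDM1B are flavin-dependent amine oxidases, and the other enzymes of the family are JmjC-domain dioxygenases that need iron and 2-oxoglutarate. The KDM5 enzymes take methyl groups off lysine 4 of histone H3, a mark of promoters and enhancers, and KDM5A, KDM5B and KDM5C are close paralogs. KDM6A and KDM6B act on lysine 27 of H3, the mark laid by Polycomb repressive complex 2, while KDM2, KDM3, KDM4 and KDM7 enzymes act on lysine 9, 27 or 36 in various combinations. KDM5C is X-linked, as is KDM6A.

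Libraries were checked before the results. Summed FPKM lay between 493543 and 513462 in the 7 lines, and the depth of these libraries is unknown because the FPKM values do not give back read numbers. In the 6 tumors they did, and the recovered library totals ran from 8793199 to 11117125 reads. VIM stood at 1038 to 1309 FPKM in all lines and ESR1 at no more than 0.023 FPKM, and PGR was listed at 0 in all of them. TRIM11 was 12.6 FPKM in Control, 13.4 and 10.6 in TRIM11-KD, 13.6 and 14.2 in KDM5C-KD, and 16.1 and 9.38 in DKD. TRIM11 mRNA was thus lower than Control in the lines labelled TRIM11-KD2 and DKD2, which share a TRIM11 guide. It was not lower in those labelled TRIM11-KD1 and DKD1, which share the other. The study checked its knockdown lines by western blotting, and these mRNA values do not measure the protein. Results below speak of lines carrying a guide. In tumors Trim11 was 35.8, 36.3 and 39.2 FPKM in Trim11+/+ and 24.0, 22.8 and 22.9 FPKM in Trim11+/-, a log2 change of -0.65. The Y-linked gene Eif2s3y stood at 21.0 FPKM in Trim11+/- tumor 2 and at 0 in the other 5 tumors. The Y-linked Ddx3y was at 0 in all 6, and Xist was 76.8 to 90.3 FPKM in all 6. For this reason the count of members without overlap and the changes of Kdm5c and Kdm4b are also given without Trim11+/- tumor 2. The numbers 1 to 3 do not tie samples to separate cultures in the labels, so p-values for the lines measure only the spread between these lines.

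In MDA-MB-231 the family was led by KDM1A, with a mean of 50.4 FPKM over the 7 lines, followed by the lysine 36 demethylase KDM2A at 32.3 FPKM and KDM5C at 24.6 FPKM. KDM1A lay at the 85.6th percentile of all tested genes and KDM5C at the 71.4th. The KDM5C mean includes the 4 lines in which KDM5C was targeted. In Control KDM5C stood above KDM2A, at 30.3 against 26.2 FPKM, and the ranges of these genes over the 7 lines overlapped. KDM1A ran from 44.3 to 59.8 FPKM, above the highest KDM2A value of 41.1 FPKM. The lowest KDM5C value, 18.8 FPKM in DKD1, was still above the highest value of the next gene, KDM3B, which was 14.5 FPKM. From KDM3B down to KDM6A, 9 genes with means of 13.9 to 5.58 FPKM had ranges that overlapped from each gene to the next. They were KDM3B, KDM5B, KDM4B, KDM2B, KDM4A, KDM3A, KDM1B, KDM6B and KDM6A. Overlap of ranges does not compare genes within a line, and KDM1B was above its neighbour KDM6B in each of the 7 lines. Some genes further apart had ranges that did not overlap. The lowest KDM3B value of 13.2 FPKM was above every value of all but KDM5B among the others. KDM5A followed at 3.76 to 4.40 FPKM, below the lowest KDM6A value of 4.79 FPKM and above the highest KDM4C value of 1.72 FPKM. KDM4C, KDM4A-AS1, KDM8 and KDM7A had means of 1.54 to 0.969 FPKM, each with a range that overlapped the next, KDM4D stood at 0.367 to 0.645 FPKM, and KDM4E was listed at 0 in all 7 lines.

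**Figure D1:**
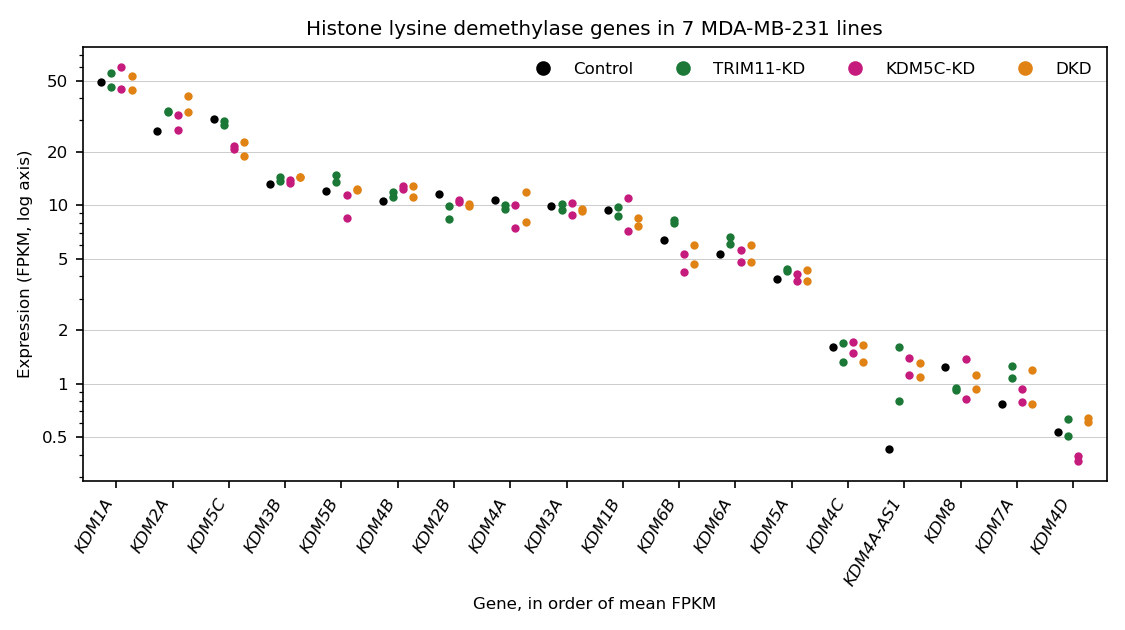
FPKM (log axis) of the 18 tested histone lysine demethylase genes in each of the 7 MDA-MB-231 lines, 1 point per line, coloured by group and ordered by mean. KDM1A, KDM2A and KDM5C stand highest, the 4 lines with a KDM5C guide sit below the other 3 for KDM5C, and Control is the lowest point for KDM4A-AS1.

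Members differed in how far they varied between lines. KDM3B, an H3 lysine 9 demethylase, was the steadiest, with a coefficient of variation of 3.90% and a highest level 1.10 times the lowest. KDM3A and KDM5A followed at 5.34% and 6.58%. Among the 13 members with means above 2 FPKM, KDM6B varied most, at 25.1%, with its highest level 1.94 times its lowest, and KDM5C came next at 19.4%. KDM4A-AS1 had a coefficient of variation of 35.5% at a mean of 1.11 FPKM.

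The comparison of lines with and without a KDM5C guide asks whether KDM5C mRNA fell and whether the paralogs KDM5A and KDM5B rose in its place. KDM5C (hg19 chrX:53205465-53254604, minus strand) was 30.3 FPKM in Control, 29.8 and 28.4 FPKM in TRIM11-KD, 20.6 and 21.4 FPKM in KDM5C-KD, and 18.8 and 22.7 FPKM in DKD. All 4 lines with the guide lay below all 3 without it. Means were 20.9 ± 1.62 FPKM (SD, n = 4) and 29.5 ± 0.994 FPKM (SD, n = 3), a ratio of 0.708. The limma fit with the TRIM11 guide as covariate gave a log2 change of -0.49 (SE 0.096, 95% interval -0.71 to -0.26), with an unadjusted p of 0.0013 and a Benjamini-Hochberg adjusted p of 0.345 over 12636 genes. By that adjustment 1 gene of the whole table passed (0.00791%), and it was no member. An exact permutation test of 4 against 3 lines cannot give a p under 0.0571, the value it gave for KDM5C. By the interval of the fit, on the FPKM + 1 scale used for all log2 changes here, KDM5C mRNA stood at 0.611 to 0.834 times its level without the guide, and the files used here hold no protein levels.

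Neither paralog rose by this test, and both had fitted changes below 0. KDM5A (hg19 chr12:389223-498486, minus strand) was 3.86 FPKM in Control, 4.26 and 4.40 FPKM in TRIM11-KD, 3.78 and 4.11 FPKM in KDM5C-KD, and 4.32 and 3.76 FPKM in DKD. The groups overlapped over most of their range. Means were 3.99 ± 0.271 FPKM with the guide and 4.17 ± 0.277 FPKM without it (SD, n = 4 and 3), a log2 change of -0.04 (SE 0.11, 95% interval -0.30 to 0.22). The limma p was 0.723 and the adjusted p 0.916. The upper end of the interval is a rise of 1.16-fold in FPKM + 1, which at this low level stands for a somewhat larger rise in FPKM.

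KDM5B (hg19 chr1:202693623-202777615, minus strand), the paralog best known from breast cancer, was 12.1 FPKM in Control, 14.7 and 13.5 FPKM in TRIM11-KD, 11.4 and 8.47 FPKM in KDM5C-KD, and 12.3 FPKM in both DKD lines. Its values with the KDM5C guide were at or below the Control level except for the DKD lines, which lay just above it. The log2 change was -0.22 (SE 0.12, 95% interval -0.50 to 0.06) with a limma p of 0.107 and an adjusted p of 0.536. Here the interval ends at a rise of 1.04-fold in FPKM + 1.

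**Figure D2:**
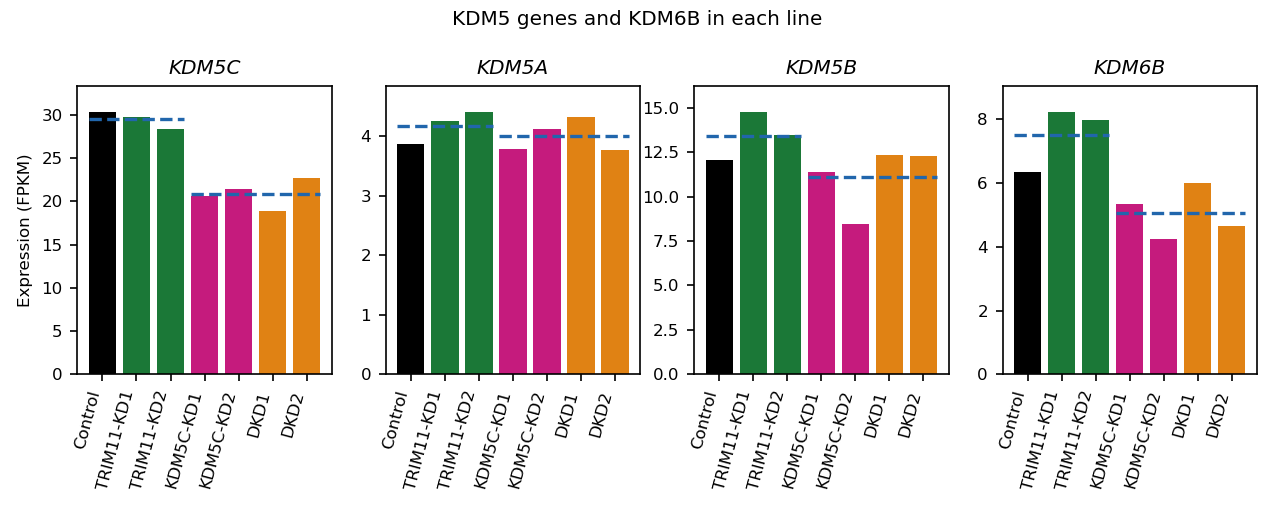
FPKM of KDM5C, KDM5A, KDM5B and KDM6B in each of the 7 lines (bars, each axis from 0), with dashed lines at the mean of the 3 lines without and the 4 lines with a KDM5C guide. For KDM5C and KDM6B all bars with the guide lie below all bars without it, KDM5A lies between 3.76 and 4.40 FPKM, and the lowest KDM5B bar is KDM5C-KD2 at 8.47 FPKM.

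Added together, the 3 KDM5 genes gave 46.2 FPKM in Control, 48.8 and 46.2 FPKM in TRIM11-KD, 35.7 and 34.0 FPKM in KDM5C-KD, and 35.5 and 38.7 FPKM in DKD. The sum was lower in every line with a KDM5C guide than in any without, with means of 36.0 ± 1.97 FPKM (SD, n = 4) and 47.1 ± 1.45 FPKM (SD, n = 3). Of the difference, KDM5C accounted for -8.59 FPKM, KDM5B for -2.32 FPKM and KDM5A for -0.181 FPKM, so on these means no paralog offset the fall. These are plain means without the TRIM11 guide as covariate, and the lines without the guide include TRIM11-KD. Set against Control alone, KDM5B was slightly higher in both DKD lines, at 12.3 against 12.1 FPKM. KDM5A was higher in KDM5C-KD2 and DKD1, at 4.11 and 4.32 against 3.86 FPKM. In the other lines with the guide each was lower than Control. KDM5C remained the most abundant of the 3 in every line. It made up 65.5% of the sum in Control, 61.0 and 61.3% in TRIM11-KD, 57.6 and 63.0% in KDM5C-KD, and 53.1 and 58.6% in DKD. KDM5C-KD2, the line with the least KDM5B, overlapped the lines without the guide in this share.

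KDM6B, a lysine 27 demethylase induced in many stress and inflammatory settings, was the other member whose levels with and without the KDM5C guide did not overlap. It (hg19 chr17:7737535-7758114, plus strand) was 6.35 FPKM in Control, 8.22 and 7.98 FPKM in TRIM11-KD, 5.35 and 4.24 FPKM in KDM5C-KD, and 5.99 and 4.67 FPKM in DKD. Both TRIM11-KD lines were highest, and DKD1 came closest to Control. The ratio of means was 0.674 and the log2 change -0.46 (SE 0.13, 95% interval -0.76 to -0.15), with a limma p of 0.0093 and an adjusted p of 0.383. KDM5C and KDM6B thus made up 2 of 18 members without overlap, beside 10.7% of all genes, and 2 of 18 with an unadjusted p under 0.05, beside 11.1% of all genes. The family's share is near that of the table as a whole. No member met the study's rule of a 1.5-fold ratio with an unadjusted p under 0.05, which 442 genes (3.5%) met. EPCAM, an epithelial adhesion gene that is no member, was 4.03 to 6.77 FPKM without and 10.3 to 12.3 FPKM with the KDM5C guide. The mesenchymal marker VIM was higher with the guide too, at 1134 to 1309 against 1038 to 1127 FPKM. The epithelial CDH1 overlapped, at 0.615 to 1.62 FPKM with and 1.07 to 1.98 FPKM without the guide. CD44 overlapped as well, at 188 to 328 and 237 to 347 FPKM. The part of these genes in the results was not tested.

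The remaining members showed differences of both signs with the KDM5C guide. Over the 18 tested members 6 had positive and 12 negative log2 changes. They ran from -0.49 to 0.27 with a median of -0.04, beside a median of 0.00 over all genes, and the adjusted p-values ran from 0.345 to 0.996. The 0.27 is not among the changes listed next, which leave out KDM4A-AS1, KDM7A and KDM8. KDM6A, the X-linked paralog of KDM6B, had a log2 change of -0.13 (95% interval -0.42 to 0.15). In the KDM4 group KDM4A was at -0.10, KDM4B at 0.13, KDM4C at -0.01 and KDM4D at -0.03. KDM1A was at 0.00 (95% interval -0.31 to 0.32) and KDM1B at -0.14. Among the KDM2 and KDM3 genes the changes were 0.14 for KDM2A, 0.02 for KDM2B, -0.04 for KDM3A and 0.04 for KDM3B. None of these members had an unadjusted p under 0.05.

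The comparison of lines with and without a TRIM11 guide asks whether the ligase TRIM11 affects transcripts of the family. KDM5C, the protein the study places downstream of TRIM11, had a log2 change of -0.04 (SE 0.096, 95% interval -0.26 to 0.19), and its groups overlapped. KDM2A (hg19 chr11:66886734-67025553, plus strand) had the widest difference. It was 26.2 FPKM in Control, 33.7 and 33.5 FPKM in TRIM11-KD, 32.1 and 26.4 FPKM in KDM5C-KD, and 41.1 and 33.2 FPKM in DKD. Each of the 4 lines with a TRIM11 guide lay above each of the 3 without, although KDM5C-KD1 came close to DKD2. Means were 35.4 ± 3.83 FPKM (SD, n = 4) and 28.2 ± 3.38 FPKM (SD, n = 3), and the log2 change was 0.34 (SE 0.11, 95% interval 0.08 to 0.61), with a limma p of 0.018 and an adjusted p of 0.449.

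KDM5B and KDM2B were the other members without overlap. KDM5B ran from 12.3 to 14.7 FPKM with a TRIM11 guide and from 8.47 to 12.1 FPKM without it, a log2 change of 0.26 (95% interval -0.02 to 0.54) with a limma p of 0.063 and an adjusted p of 0.492. Without KDM5C-KD2 that change was 0.16 with a limma p of 0.171. KDM2B, which recruits a Polycomb complex to unmethylated CpG islands, went the other way, at 8.39 to 10.1 FPKM with the guide and 10.5 to 11.6 FPKM without it, a log2 change of -0.17 (95% interval -0.42 to 0.08) with a limma p of 0.149 and an adjusted p of 0.584. Without Control the change of KDM2B was -0.07. In all 3 of 18 members did not overlap, beside 8.75% of all genes and 8.82% of genes with a mean in the members' range. The study's rule of 1.5-fold and p was met by none, beside 3.93% of all genes. By an unadjusted p under 0.05 1 of 18 members passed, beside 10.7% of all genes, and no gene of the table had an adjusted p under 0.05, while 1348 had an unadjusted p under 0.05. Over the 18 members log2 changes ran from -0.17 to 0.34 with a median of 0.06, beside -0.01 over all genes. TRIM11 itself had a log2 change of -0.13 in this fit.

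**Figure D3:**
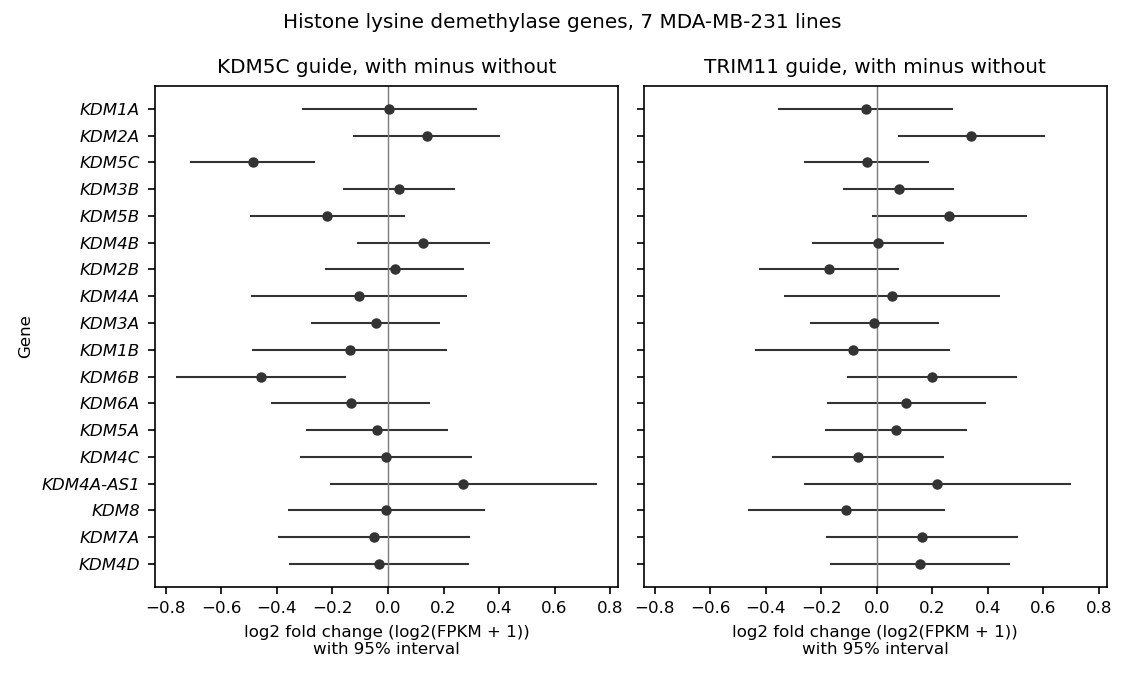
Log2 fold change on the log2(FPKM + 1) scale of the 18 tested members in the limma fit over 7 lines, with 95% intervals, for lines with against without a KDM5C guide (left) and with against without a TRIM11 guide (right). The intervals of KDM5C and KDM6B on the left and of KDM2A on the right leave out 0 before adjustment, and those of all other members cross it.

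KDM5C-KD lines were also set against DKD lines, 2 against 2, to see what adding a TRIM11 guide did where KDM5C was already targeted. KDM5C-KD1 carried KDM5C guide 1 and both DKD lines guide 2, so the change of KDM5C guide and the added TRIM11 guide cannot be told apart in that line. KDM5C had a log2 difference, KDM5C-KD minus DKD, of 0.02 (95% interval -0.30 to 0.34), and KDM5A of -0.03 (95% interval -0.39 to 0.33). KDM5B was lower in KDM5C-KD, at 11.4 and 8.47 FPKM, than in DKD, at 12.3 FPKM in both lines, a log2 difference of -0.30 (95% interval -0.69 to 0.10) with a limma p of 0.117 and an adjusted p of 0.515. It was -0.10 without KDM5C-KD2 and -0.49 without KDM5C-KD1. KDM2A, at 32.1 and 26.4 FPKM against 41.1 and 33.2 FPKM, differed by -0.34 (95% interval -0.71 to 0.04, adjusted p = 0.464), and by -0.19 without DKD1 and -0.20 without KDM5C-KD2. With 2 lines a side, groups failed to overlap for 5 of 18 members and for 43.3% of all genes (43.6% of genes with a mean in the members' range). No member met the rule of 1.5-fold and p, beside 6.8% of all genes, or had an unadjusted p under 0.05, beside 11.7% of all genes. No gene of the table passed the adjusted threshold in limma, with 1480 at an unadjusted p under 0.05. An exact permutation test cannot give a p under 0.333 with 2 against 2.

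Against the 1 Control line no test was run, and a member was counted as changed where the pair of knockdown lines both differed from it by 1.5-fold or more in the same direction. All 3 knockdowns share that Control. KDM4A-AS1 was the only member counted in any, and it was counted in each. It (hg19 chr1:44150794-44173809, minus strand) was 0.430 FPKM in Control, 0.802 and 1.61 FPKM in TRIM11-KD, 1.12 and 1.39 FPKM in KDM5C-KD, and 1.31 and 1.08 FPKM in DKD. Ratios to Control were 1.86 and 3.74, 2.60 and 3.23, and 3.04 and 2.52. One low value in 1 library is common to all of them, and the annotated span of this transcript overlaps that of KDM4A (hg19 chr1:44115820-44171189, plus strand), from which reads cannot be separated. KDM4A, at 10.7 FPKM in Control and 7.45 to 11.9 FPKM elsewhere, did not show the low Control value. The 1 of 18 members higher stands beside 3.25% of all genes for TRIM11-KD, 5.22% for KDM5C-KD and 5.71% for DKD, and 0 of 18 lower beside 2.58%, 3.97% and 4.87%. KDM5C did not reach the 1.5-fold mark in KDM5C-KD, at 0.679 and 0.707 times Control, and reached it in 1 DKD line only, at 0.622 and 0.749 times. KDM7A was 1.40 and 1.65 times Control in TRIM11-KD and 1.01 and 1.55 times in DKD, KDM2A was 1.57 and 1.27 times Control in DKD, and KDM8 was 0.657 and 1.11 times Control in KDM5C-KD, each past the mark in 1 line.

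In the tumors Kdm5c was the most abundant member, with a mean of 25.9 FPKM over 6 tumors (1522 to 2292 reads each) at the 86.7th percentile of tested genes. Kdm1a came next at 22.9 FPKM, then the lysine 27 demethylase Kdm6b at 17.8 FPKM, Kdm4a at 17.5 FPKM and Kdm6bos at 15.5 FPKM. From Kdm5c to Kdm3b, 14 genes in a row had ranges over the 6 tumors that overlapped with the next. Overlap of ranges does not compare genes within a tumor, and Kdm4b was above its neighbour Kdm5a in each of the 6 tumors. All of Kdm3b, at 6.34 to 7.78 FPKM, lay above Kdm2b, which reached 5.06 FPKM at most, and all of Kdm7a, at 3.80 to 4.74 FPKM, lay above Kdm8, at 1.29 to 2.30 FPKM. Kdm8 had 31 to 61 reads per tumor, so its values are the least precise of those tested. The germline gene Kdm4d had 0 to 4 reads and the pseudogene Kdm4dl 0 or 1, both under the minimum for testing.

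**Figure D4:**
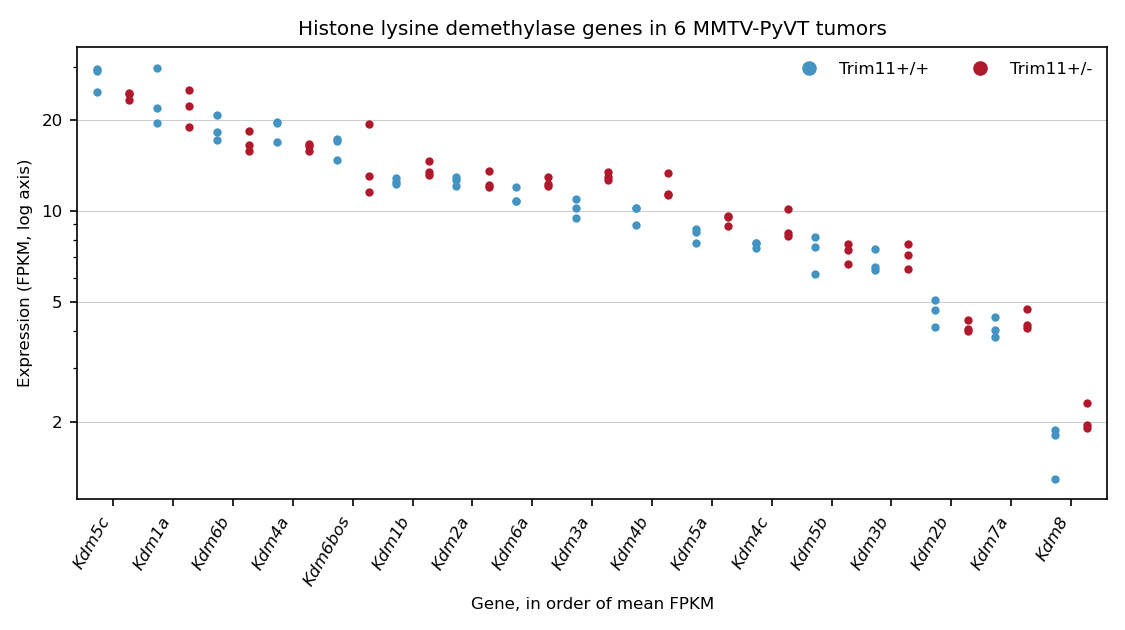
FPKM (log axis) of the 17 tested members in each of 3 Trim11+/+ and 3 Trim11+/- tumors, 1 point per tumor, ordered by mean. Kdm5c and Kdm4a are lower and Kdm3a and Kdm4b higher in the Trim11+/- tumors without overlap, and the points of both genotypes mix for Kdm1a, Kdm2a and Kdm5b.

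The comparison of Trim11+/- with Trim11+/+ tumors asks whether loss of a Trim11 copy altered the family's transcripts. Kdm5c (mm10 chrX:152233020-152274535, plus strand) was 29.5, 24.7 and 29.0 FPKM in Trim11+/+ and 24.5, 24.3 and 23.3 FPKM in Trim11+/-. The groups did not overlap, but Trim11+/+ tumor 2 lay close to the highest Trim11+/- tumor. Means were 27.7 ± 2.62 and 24.1 ± 0.647 FPKM (SD, n = 3 each), a log2 change of -0.19 (SE 0.10, 95% interval -0.43 to 0.05), with a limma p of 0.098 and an adjusted p of 0.739. Without Trim11+/- tumor 2, the tumor with Eif2s3y, it was -0.20, and without Trim11+/+ tumor 2 it was -0.27.

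Kdm5a (mm10 chr6:120364124-120444574, plus strand) was 7.79, 8.70 and 8.48 FPKM in Trim11+/+ and 9.59, 8.90 and 9.54 FPKM in Trim11+/-. All Trim11+/- values were higher, by a ratio of means of 1.12 and a log2 change of 0.15 (95% interval -0.08 to 0.38) with a limma p of 0.163 and an adjusted p of 0.787. Kdm5b was 7.59, 6.17 and 8.20 FPKM against 7.43, 7.74 and 6.66 FPKM, a log2 change of 0.00 (95% interval -0.31 to 0.31). As groups, Trim11+/- tumors were thus lower in Kdm5c and higher in Kdm5a without overlap, with both intervals including 0, while Kdm5b overlapped throughout. This was not particular to Kdm5a, as 7 of 17 tested members were higher and 2 lower without overlap, beside 13.4% of all genes. A link between the 2 genes was not tested. The summed FPKM of the 3 genes was 39.6 to 45.6 in Trim11+/+ and 39.5 to 41.6 in Trim11+/-. Kdm5c made up 62.4 to 65.7% of it in Trim11+/+ and 59.0 to 59.4% in Trim11+/-.

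The lysine 9 demethylases Kdm3a and Kdm4b were the members with an unadjusted p under 0.05. Kdm3a (mm10 chr6:71588972-71632990, minus strand), which takes part in hypoxia responses and spermatogenesis, was 10.9, 9.46 and 10.2 FPKM in Trim11+/+ and 13.5, 12.9 and 12.6 FPKM in Trim11+/-. The lowest Trim11+/- tumor stood above the highest Trim11+/+ tumor by more than either group's SD of 0.739 and 0.440 FPKM. The ratio of means was 1.27 and the log2 change 0.32 (SE 0.096, 95% interval 0.09 to 0.55), with a limma p of 0.0129 and an adjusted p of 0.634. Kdm4b (mm10 chr17:56326062-56402870, plus strand) was 10.2, 8.98 and 10.2 FPKM in Trim11+/+ and 11.4, 13.3 and 11.3 FPKM in Trim11+/-, a log2 change of 0.27 (SE 0.11, 95% interval 0.00 to 0.53) with a limma p of 0.048 and an adjusted p of 0.713. Trim11+/- tumor 2 was the highest, and without it the change was 0.19 with a limma p of 0.149.

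**Figure D5:**
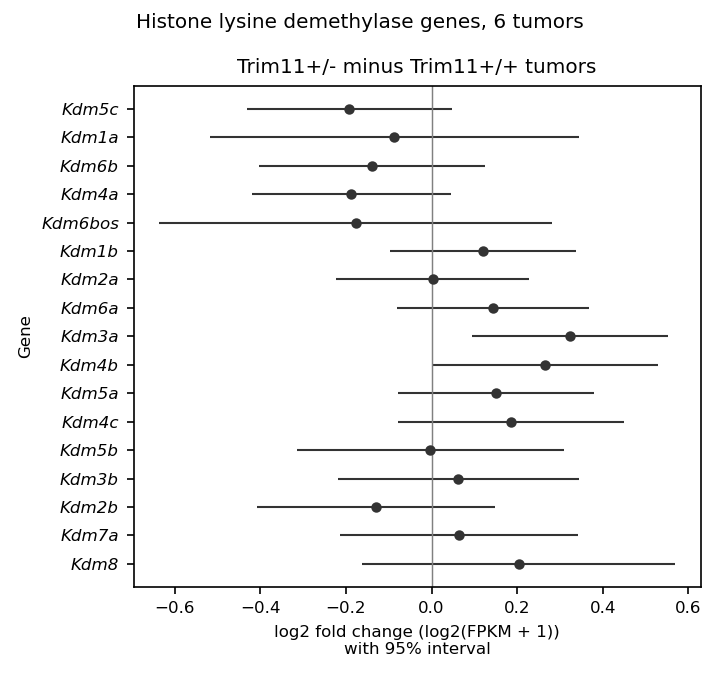
Log2 fold change on the log2(FPKM + 1) scale, Trim11+/- minus Trim11+/+, of the 17 tested members in 6 tumors, with 95% intervals of the limma fit. The intervals of Kdm3a and Kdm4b leave out 0 before adjustment, and Kdm5a and Kdm5c lie on opposite sides of 0 with intervals that cross it.

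In all 9 of 17 tested members had values without overlap between genotypes, beside 13.4% of all genes and 13.9% of genes with a mean between those of the lowest and highest tested member. Kdm1b, Kdm3a, Kdm4b, Kdm4c, Kdm5a, Kdm6a and Kdm8 were higher in Trim11+/-, and Kdm4a and Kdm5c were lower. Without Trim11+/- tumor 2 it was 11 of 17 members, beside 21.7% of all genes. Among the higher ones the log2 changes were 0.12 for the amine oxidase Kdm1b, 0.19 for Kdm4c, 0.14 for the X-linked Kdm6a and 0.20 for Kdm8, and Kdm4a was at -0.19. Kdm8 was at 0.10 without Trim11+/+ tumor 3, and without Trim11+/- tumor 3 Kdm4c was at 0.10 and Kdm1b at 0.08. The overlapping antisense and sense pair was Kdm6bos, at 17.3, 14.8 and 17.0 FPKM in Trim11+/+ and 19.4, 11.5 and 13.1 FPKM in Trim11+/-, and Kdm6b, at 18.2, 17.1 and 20.7 FPKM and 16.5, 18.3 and 15.8 FPKM. Both overlapped between genotypes, as did Kdm1a, Kdm2a, Kdm2b, Kdm3b, Kdm5b and Kdm7a. By an unadjusted p under 0.05 2 of 17 members passed, beside 6.94% of all genes, by the 1.5-fold rule with p 0 of 17, beside 3.61%, and by the adjusted p 0 of 17, with 1 gene of the table (0.00577%). Members' adjusted p-values ran from 0.634 to 0.998, and an exact permutation test of 3 against 3 cannot give a p under 0.1. The median log2 change was 0.06 over members and -0.01 over all genes.

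Markers of other cell types in the tumors were read beside these values. The summed FPKM of 5 basal and myoepithelial genes was 131 to 317 in Trim11+/+ and 59.1 to 90.4 in Trim11+/-, with 4 of 5 lower without overlap and none at 0. For 3 erythroid genes the sums were 33.7 to 42.0 and 13.8 to 19.4, with 2 of 3 lower without overlap. Epithelial genes summed to 1398 to 1704 and 1320 to 1832 and overlapped, as did the sums of macrophage, neutrophil, fibroblast, endothelial, adipocyte, muscle, T cell and B cell genes. Within those lists 2 of 4 neutrophil genes were lower in Trim11+/- without overlap (S100a9 at a mean of 0.793 against 3.27 FPKM and Csf3r at 1.35 against 1.83 FPKM), as was 1 of 6 macrophage genes (Csf1r at 9.59 against 12.9 FPKM). The part of cell composition in the members' differences was not tested. In bulk tissue, fewer cells of a type and less RNA per cell cannot be told apart.

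Ordered by mean FPKM, the 16 members tested in both species had a Spearman's rho of 0.47 between the 7 lines and the 6 tumors, given as a description because the tables differ in species, tissue and how their values were made. KDM1A and KDM5C were among the first 3 in both, and KDM8 and KDM7A were the last 2 in both. KDM6B ranked 11 in the lines and Kdm6b 3 in the tumors. KDM3B ranked 4 in the lines and Kdm3b 13 in the tumors.

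Genes that write the marks removed by this family, or work in complexes with it, were read from 5 lists (methyltransferases of H3 lysine 4, their complex subunits, partners of LSD1, other JmjC proteins, and Polycomb repressive complex 2). In tumors 1 of 52 tested genes had a higher level by an unadjusted p under 0.05 and 0 a lower one, beside 6.94% of all genes in either direction. It was Eed, a core subunit of Polycomb repressive complex 2, at 20.6 against 16.8 FPKM (log2 change 0.28, adjusted p = 0.707). With the KDM5C guide 3 of 48 were higher and 2 lower, a share near the 11.1% of all genes. PAXIP1, a subunit of the KMT2C and KMT2D complexes, was at 11.9 against 9.22 FPKM, JMJD8 at 28.6 against 21.2 FPKM and EZH2, the Polycomb methyltransferase, at 21.7 against 16.3 FPKM. JARID2 and PHF1, both accessory to Polycomb repressive complex 2, were lower, at 11.2 against 14.2 FPKM and 34.6 against 47.9 FPKM. Their adjusted p-values in limma were 0.383 to 0.423, so none passed.

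With the TRIM11 guide 0 of 48 list genes were higher and 2 lower by an unadjusted p under 0.05, beside 10.7% of all genes. SMYD3, a methyltransferase, was at 46.4 against 75.5 FPKM, a log2 change of -0.79 (adjusted p = 0.448), and JMJD8 at 22.7 against 29.0 FPKM. Between KDM5C-KD and DKD, SMYD3 was at 77.9 against 35.7 FPKM (log2 difference 1.11, adjusted p = 0.344) and the LSD1 partner HDAC2 at 30.5 against 23.0 FPKM, both higher in KDM5C-KD, and ASH2L, a core subunit of the lysine 4 methyltransferase complexes, was lower at 11.4 against 15.4 FPKM. These were 2 higher and 1 lower of 48, beside 11.7% of all genes. No list gene passed the adjusted threshold in any comparison, and list medians lay between -0.13 and 0.15 on the log2 scale.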

How the data were processed

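RNA-Seq of 7 MDA-MB-231 lines and 6 MMTV-PyVT tumors was analysed. Poly(A) libraries that do not mark strand were sequenced as paired ends, and the authors used FastQC and Cutadapt for quality and trimming, HISAT2 for mapping (hg19 or mm10) and, by the methods, Cufflinks for FPKM values. The deposited FPKM tables, 1 per species with 1 column per library, were used as they stand. For 98.8% of tumor genes with 1 annotation entry the FPKM gave whole reads in all 6 tumors (tolerance 0.05 read), and those reads served as an alternative. The depth of the lines is unknown, so counting error there cannot be set apart from the spread between lines.

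Rows sharing a symbol were reduced to the one with the highest mean, and 25 human symbols that had been turned into dates were dropped. The minimum mean FPKM of 0.5 left 12636 genes in lines and 17328 in tumors for testing. Tests used log2(FPKM + 1) in limma 3.58.1 under R 4.3.3 (lmFit, eBayes with a trend), with Benjamini-Hochberg adjustment over all genes tested. The pseudocount of 1 understates changes of low genes. Lines with and without a guide were compared over all 7 lines with the other guide as covariate, KDM5C-KD with DKD in a fit over the 6 knockdown lines, and tumors by genotype. Counts against the 1 Control used a 1.5-fold change in both lines. Exact permutation tests were two-sided. The limma step was tested on simulated data. Other steps used Python 3.11.15, numpy 2.4.6, pandas 2.3.3 and scipy 1.17.1, and figures matplotlib 3.10.9. Gene positions come from GENCODE annotation of hg19 and mm10.

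Members and gene lists were chosen with earlier results of these data known. Members were named by the naming rule, and list genes where an unadjusted p was under 0.05. Some list symbols written under newer or older names, such as MLL, had no row in the human table. Alternatives changed the pseudocount, filter, scaling, covariate, replicate block and each library in turn. ChIP-Seq data, protein sequences and guide sequences were not used here.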

Additional observations from a re-analysis of the deposited data

Results flagged for a closer look

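In the 4 lines with a TRIM11 guide, 1 line stood apart from the other 3 for 4 members, as the gap to its nearest neighbour divided by the range of the 4 lines. For KDM2A it was DKD1, at 41.1 FPKM against 33.2 to 33.7 FPKM, a ratio of 0.944. For KDM2B it was TRIM11-KD2, at 8.39 FPKM against 9.87 to 10.1 FPKM, a ratio of 0.855. For KDM3B it was TRIM11-KD2, at 13.6 FPKM against 14.4 to 14.5 FPKM, a ratio of 0.919. For KDM8, a low-expressed JmjC gene, it was DKD1, at 1.11 FPKM against 0.921 to 0.942 FPKM, a ratio of 0.887. In all 36 sets of 4 lines were read this way. For values of a single population, chance passes the 95% limit of Dixon's test in about 1 of 20. Each set here joins DKD lines with TRIM11-KD or KDM5C-KD lines and holds different guides, so that rate need not apply. The part of group or guide in these gaps was not tested. Without DKD1 the change of KDM2A with the TRIM11 guide was 0.27 on the log2 scale.

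Whether the effect of the KDM5C guide differed with the TRIM11 guide was read from an interaction term in limma over the 7 lines. Its arm with neither guide is the 1 Control line, which was taken to vary like the lines of the other groups. No member had an unadjusted p under 0.05, the smallest being 0.135 for KDM4A-AS1, beside 694 of 12636 genes, and 2 genes of the table had an adjusted p under 0.05.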

How the results depend on the processing

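No member reached an adjusted p under 0.05 under any setting run, and the lowest was 0.219 in lines (KDM5C-KD against DKD) and 0.513 in tumors. With another pseudocount, filter, scaling, covariate or model, 238 of the member and ligase values the report gives kept their direction and side of the threshold and 6 changed sign. Those outside the replicate block were KDM4C with the KDM5C guide (0.0031) and KDM5C with the TRIM11 guide (0.046), both without the covariate, and Kdm5b in tumors with median ratio scaling (0.0020). Against Control, genes higher and lower in DKD numbered 316 and 231 at 2-fold, 1243 and 1025 by the mean of the 2 lines, and 404 and 368 with a pseudocount of 1. For KDM5C-KD they numbered 261 and 206, 1170 and 938, and 336 and 317, and for TRIM11-KD 142 and 69, 840 and 659, and 128 and 150. Without a filter on low values the 1.5-fold rule with p counted 776 genes for the KDM5C guide, 808 for the TRIM11 guide and 970 in tumors, as more genes were tested. The 1 gene with an adjusted p under 0.05 for the KDM5C guide became 0 with a pseudocount of 0.1 or a minimum mean FPKM of 1, and the 1 in tumors became 0 with limma voom on recovered reads. The cause of these shifts was not tested.

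The replicate number as a block was fitted too. In the lines this fit used the knockdown lines only and left out Control. The replicate numbers are spread evenly over the knockdown groups, so the block leaves the log2 changes of that fit unmoved. Shifts of log2 changes in the lines are therefore those of leaving out Control. For counts of genes, which rest on p-values, the block and the loss of Control cannot be told apart. Same-numbered tumors had correlations of deviations of -0.33, 0.038 and -0.13, and same-numbered lines of 0.088, 0.37 and 0.27 with 2 numbers only. The numbers were not taken to pair samples. Same-numbered TRIM11-KD and DKD lines do share a TRIM11 guide, and the 0.37 is the value between them. With the replicate block, genes with an adjusted p under 0.05 were 0 for the KDM5C guide and 0 in tumors, the 1.5-fold rule counted 837 genes for the TRIM11 guide, and with the KDM5C guide KDM1A was at -0.052, KDM4A at 0.0069 and KDM4D at 0.052. KDM5C was at -0.43 with that guide in the block fit, KDM5A at -0.08 and KDM5B at -0.18, and Kdm5c in tumors at -0.19. The values of KDM4A and KDM4D, 0.0069 and 0.052, were also the upper ends of their ranges with single libraries left out.

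Leaving out 1 library at a time, 209 of those values kept direction and side and 21 changed sign. With the KDM5C guide the ranges were -0.072 to 0.083 for KDM1A, -0.054 to 0.12 for KDM2B, -0.26 to 0.0069 for KDM4A, -0.061 to 0.046 for KDM4C, -0.081 to 0.052 for KDM4D and -0.082 to 0.010 for KDM5A, the last above 0 without DKD2 alone. With the TRIM11 guide they were -0.10 to 0.025 for KDM5C and -0.30 to 0.064 for TRIM11, between KDM5C-KD and DKD -0.11 to 0.053 for KDM5A and -0.11 to 0.15 for KDM5C, and in tumors -0.11 to 0.074 for Kdm5b. Of the 38 member changes the report does not give singly, 21 crossed 0 with some library left out: 2 of 3 with the KDM5C guide, 6 of 14 with the TRIM11 guide, 11 of 14 between KDM5C-KD and DKD, and 2 of 7 in tumors. The 1.5-fold rule with p counted 255 (without Control) to 728 (without TRIM11-KD2) genes for the KDM5C guide, where it was 290 without TRIM11-KD1. For the TRIM11 guide it counted 286 (without KDM5C-KD2) to 730 genes, with 290 without DKD2, and between KDM5C-KD and DKD 340 (without KDM5C-KD2) to 1628 (without KDM5C-KD1). Genes with an adjusted p under 0.05 ranged from 0 to 1 for each guide and in tumors, and from 0 to 17 (without KDM5C-KD1) between KDM5C-KD and DKD. A lone line left in a group was taken to vary like the others. In the lines no depth is known, so nothing can be said of counting error in KDM4A-AS1, KDM7A, KDM8 or KDM4D.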
